A study of Homo sapiens with 24 samples.

Results

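HCC1954 and JIMT1 are established human breast carcinoma lines with extra copies of ERBB2, and their gene expression was compared here without an inhibitor. The comparison took the 6 arrays of cells kept for 4 hr in 0.1% DMSO, 3 of HCC1954 and 3 of JIMT1, out of 24 Illumina bead arrays. Per the study, both lines carry a PIK3CA mutation and are insensitive to BYL719, an inhibitor of the PI3K alpha catalytic subunit. The other 18 arrays hold the same lines after 4 hr with 1 μM BYL719, with 1 μM GSK2334470, which inhibits the kinase PDK1, or with both agents, 3 arrays in each group. Each group is 1 cell line, so a difference belongs to these cultures and not to a class of tumors.

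Breast carcinoma lines with ERBB2 gain need not be alike in other respects. Luminal cells of the breast duct express keratins such as KRT8, KRT18 and KRT19, mucins and factors such as SPDEF, basal cells express keratins such as KRT5 and KRT15, and cells that have lost epithelial traits express N-cadherin, vimentin and the receptor kinase AXL. PI3K makes a membrane lipid that brings AKT to PDK1, and PDK1 also activates the SGK kinases, which share substrates with AKT.

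The median intensity of the 6 arrays ran from 53.8 to 81.9, and 41% to 43.8% of their probes were detected (detection p-value under 0.05). Values below are background-corrected, quantile normalized log2 intensities, and differences are HCC1954 minus JIMT1 with the standard error (SE) of the fit. Over 12109 genes, arrays of 1 line correlated at r from 0.9901 to 0.9944 and arrays of different lines at 0.8403 to 0.8422. The core facility numbered all JIMT1 arrays before all HCC1954 arrays and no chip or scan label was given, so processing order and line cannot be told apart. Both lines carried the epithelial markers. EPCAM, a surface adhesion molecule of epithelial cells, lay at 13.43, 13.40 and 13.42 in HCC1954 and 13.22, 13.40 and 13.40 in JIMT1 (0.08 ± 0.09, limma adjusted p = 0.47). KRT8 also did not pass the test (0.03 ± 0.11), and KRT18, its partner in the filament, was lower in HCC1954 by a small amount (-0.60 ± 0.17), a call that ended with the mean over its probes (-0.05).

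The lines differed in most measured genes. Of 12109 genes tested with limma, 8446 (69.7%) passed an adjusted p-value of 0.05, with 4163 (34.4%) higher in HCC1954 and 4283 (35.4%) higher in JIMT1. A difference of at least 2-fold was called for 3440 genes (28.4%), 1776 (14.7%) higher in HCC1954 and 1664 (13.7%) higher in JIMT1. For 3439 of them the 3 arrays of one line all lay above the 3 of the other. Fitted differences of at least 16-fold were called for 117 genes higher in HCC1954 and 126 higher in JIMT1. All these counts use fitted values, also for genes not detected in one of the lines, where the fold is only a bound that can be smaller. Among the 2-fold calls, 1184 genes higher in HCC1954 and 1057 higher in JIMT1 were detected on every DMSO array of both lines. The 34 gene lists below are read against these shares of all genes, and they were drawn up with earlier results of these arrays known.

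**Figure D1:**
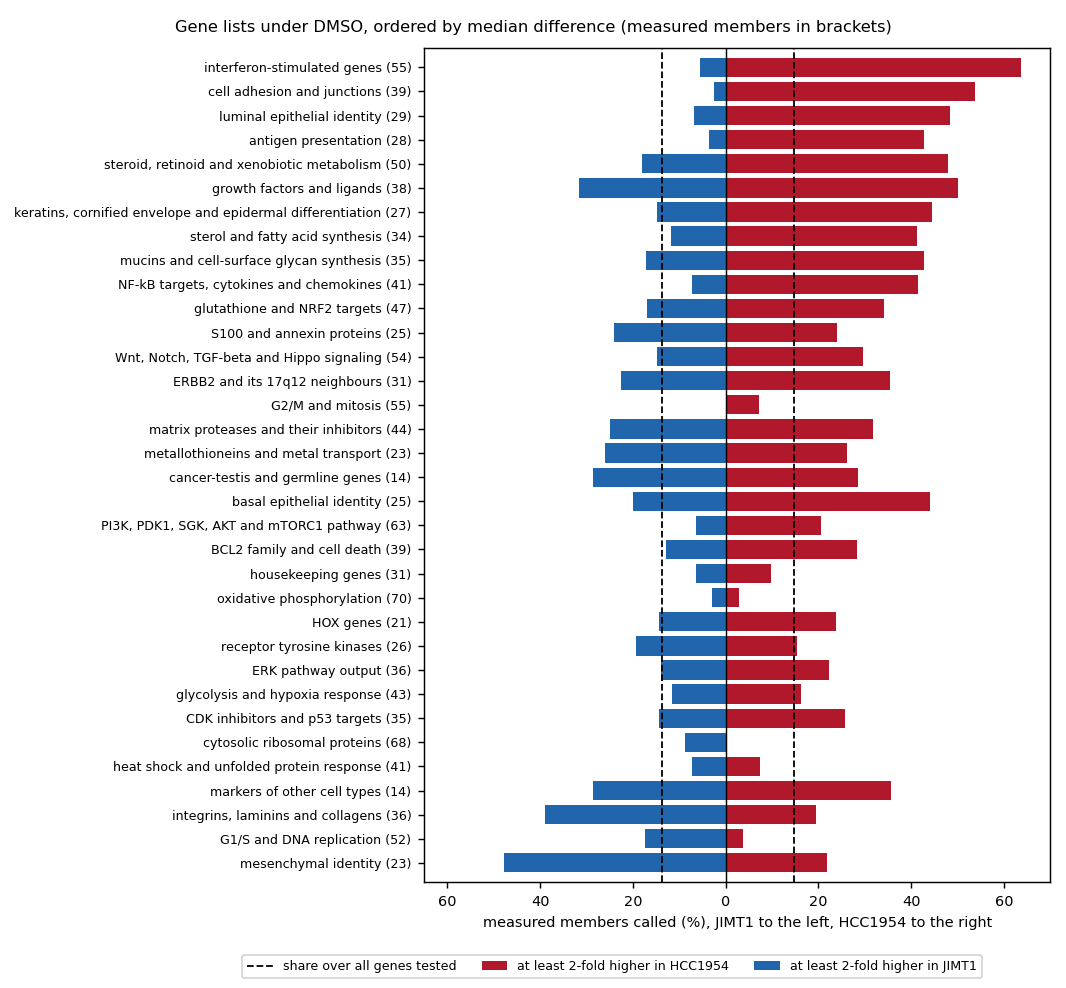
Share of the measured members of each gene list called at least 2-fold higher in HCC1954 (to the right) or in JIMT1 (to the left), in percent, with dashed lines at the shares over all 12109 genes (14.7% and 13.7%). Lists are ordered by their median difference, from interferon-stimulated genes, with 63.6% called higher in HCC1954, to mesenchymal genes, with 47.8% called higher in JIMT1.

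Among genes detected on every array of both lines, KRT15, a keratin of basal epithelial cells, differed most. KRT15 lay at 14.32, 14.33 and 14.32 in HCC1954 and 5.75, 5.66 and 5.28 in JIMT1, a difference of 8.76 ± 0.18, or 433-fold. The lowest signals that counted as detected on these JIMT1 arrays were 5.28, 5.29 and 5.27, so this fold rests on a line near background. S100A8, a calcium-binding protein released in inflammation, lay at 13.42, 13.48 and 13.35 in HCC1954 and 6.14, 6.24 and 6.15 in JIMT1 (151-fold). Its partner S100A9 was 21.4-fold higher in HCC1954, so both chains of calprotectin stood on that side. The next differences were those of AKR1C4 (5.88), MGP (5.57), ANO1 (5.56), AKR1B15 (5.48) and IGFBP3 (5.35). ANO1, a calcium-activated chloride channel, lay at 11.77, 11.86 and 11.51 in HCC1954 and 6.18, 6.14 and 6.13 in JIMT1. The genes of this ranking were taken from those whose arrays did not overlap between the lines.

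In the other direction, UCHL1, a deubiquitinating enzyme best known from neurons, differed most. UCHL1 lay at 5.62, 5.69 and 5.45 in HCC1954 and 12.65, 12.43 and 12.46 in JIMT1 (122-fold higher in JIMT1). MDK, a heparin-binding growth factor, was 72.7-fold higher in JIMT1. AXL, a receptor kinase, lay at 6.26, 5.56 and 5.39 in HCC1954 and 11.87, 11.84 and 11.84 in JIMT1 (69.3-fold). MAGED1 (-5.82), MLLT11 (-5.75), ADIRF (-5.54), GSTP1 (-5.38) and DHRS2 (-5.12) followed. The lowest signals that counted as detected on the HCC1954 arrays were 5.40, 5.36 and 5.32. The folds of UCHL1 and AXL therefore also rest on a line near background, for AXL on replicates 2 and 3. OXTR, the oxytocin receptor, was also higher in JIMT1 (-4.83 ± 0.09), as was ABCA1, which exports cholesterol (-4.86 ± 0.14).

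A further 419 genes were detected on all 3 arrays of HCC1954 and on no array of JIMT1, and 508 the other way round. For these a fold is a lower bound, taken against the lowest signal that counted as detected. CEACAM6, a surface glycoprotein of epithelial cells, lay at 13.76, 13.78 and 13.98 in HCC1954 and was not well above background in JIMT1 (at least 378-fold higher). The carboxylesterase CES1 was at least 162-fold higher in HCC1954, the chemokine CCL2 at least 102-fold and the protease inhibitor SERPINA3 at least 103-fold. NPTX1, a secreted pentraxin of neurons, lay at 13.48, 13.48 and 13.48 in JIMT1 and was not well above background in HCC1954 (at least 278-fold higher in JIMT1). LDHB, a lactate dehydrogenase subunit, lay at 13.40, 13.43 and 13.48 in JIMT1 (at least 270-fold). The Wnt antagonist SFRP1 was at least 187-fold higher in JIMT1, and BCAT1, which starts the breakdown of branched-chain amino acids, at least 71.7-fold.

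**Figure D2:**
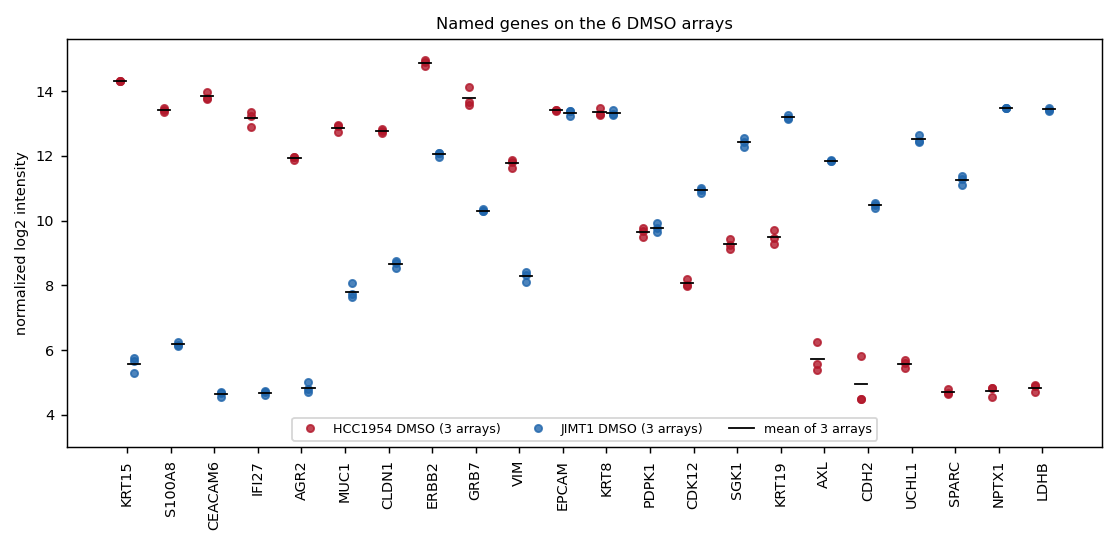
Normalized log2 intensity of named genes on the 3 HCC1954 and 3 JIMT1 DMSO arrays, with the mean of each line as a bar. KRT15, S100A8 and CEACAM6 lie far higher in HCC1954, UCHL1, AXL and NPTX1 far higher in JIMT1, and EPCAM, KRT8 and PDPK1 lie close together in both lines.

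Interferon-stimulated genes were the list furthest to the HCC1954 side. Interferons act through receptors on the cell surface and induce antiviral genes, many of which carry a short response element in their promoters. The core searched here was GAAA, any 2 bases, then GAAA, on either strand, overlaps counted, in RefSeq promoters (GRCh38.p14, 250 bases before to 50 after a start site). It was present in 28 of the 45 promoters matched to measured members (62.2%), against 996 of 27305 promoters in the table (3.65%). Of the members at least 2-fold higher in HCC1954 it was in 13 of 26 promoters, and of the other members in 15 of 19. The stretches of 120 bases below end before the start site, with the matches in capitals. They show 4 members that were higher in HCC1954, then LGALS3BP, which was higher in JIMT1, and IFI6, which differed by less than 2-fold. IFI44L, HERC5 and IFI6 were chosen after their values were seen.
IFI27, chr14:94110579-94110698, plus strand: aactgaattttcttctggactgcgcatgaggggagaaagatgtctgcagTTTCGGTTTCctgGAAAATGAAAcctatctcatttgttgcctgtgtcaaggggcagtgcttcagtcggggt
IFITM1, chr11:313920-314039, plus strand: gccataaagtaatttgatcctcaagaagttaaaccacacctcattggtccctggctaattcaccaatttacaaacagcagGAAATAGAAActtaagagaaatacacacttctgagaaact
IFI44L, chr1:78620274-78620393, plus strand: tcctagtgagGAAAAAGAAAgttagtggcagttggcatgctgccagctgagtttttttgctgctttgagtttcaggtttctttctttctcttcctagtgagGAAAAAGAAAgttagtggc
HERC5, chr4:88456964-88457083, plus strand: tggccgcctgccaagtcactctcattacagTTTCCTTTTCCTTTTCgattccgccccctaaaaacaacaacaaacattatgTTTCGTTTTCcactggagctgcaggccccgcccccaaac
LGALS3BP, chr17:78979924-78980043, minus strand: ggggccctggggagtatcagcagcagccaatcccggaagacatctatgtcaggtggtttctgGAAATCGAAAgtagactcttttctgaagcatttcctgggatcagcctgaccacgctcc
IFI6, chr1:27672253-27672372, minus strand: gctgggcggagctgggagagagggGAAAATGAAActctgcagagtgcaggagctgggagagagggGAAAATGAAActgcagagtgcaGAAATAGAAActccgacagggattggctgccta
The same letters stand in promoters of members that differed in either direction.

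Of the 55 measured members, 44 passed the threshold higher in HCC1954 and 6 higher in JIMT1, and 35 (63.6%) were at least 2-fold higher in HCC1954 and 3 (5.46%) in JIMT1. The median difference was 1.61, or 1.49 with undetected members at their bound, where that over all genes was -0.0024. IFI27, a mitochondrial protein induced by interferon alpha, lay at 13.37, 13.22 and 12.89 in HCC1954 and was not well above background in JIMT1 (at least 235-fold higher). IFITM1, a membrane protein that blocks virus entry, lay at 11.79, 11.38 and 11.53 (at least 78.2-fold). IFI16, a sensor of foreign DNA, was detected in both lines and lay at 11.04, 11.04 and 11.24 in HCC1954 and 5.91, 5.98 and 6.24 in JIMT1 (33.4-fold). OAS2, which makes the messenger that activates RNase L, was at least 28.5-fold higher in HCC1954.

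The list was not of 1 direction. MX1, a dynamin-like antiviral GTPase, lay at 6.48, 6.63 and 6.53 in HCC1954 and 8.85, 8.86 and 8.93 in JIMT1 (5.04-fold higher in JIMT1). GBP3, a guanylate-binding protein, and LGALS3BP, a secreted glycoprotein, were 4.31-fold and 3.33-fold higher in JIMT1. On the treated arrays the median of the list was 1.56, 1.51 and 1.30 under BYL719, GSK2334470 and both agents.

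Antigen presentation genes and targets of NF-kB leaned the same way. Of 28 measured presentation genes, 12 (42.9%) were at least 2-fold higher in HCC1954 and 1 (3.57%) in JIMT1, the last being the chaperone CANX (-1.72 ± 0.11). HLA-B, a class I heavy chain, lay at 11.36, 11.43 and 11.17 in HCC1954 and 8.99, 9.24 and 9.17 in JIMT1 (4.55-fold). HLA-DRB1, a class II chain, was at least 15.1-fold higher in HCC1954. HLA genes are near copies, as are those of the AKR1C, AKR1B, IFITM, MAGEA and type I keratin families and S100A7, ANXA8 and SPANXA1 with their relatives, so a probe may read several of them.

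Of 41 NF-kB targets and cytokines, 17 (41.5%) were at least 2-fold higher in HCC1954 and 3 (7.32%) in JIMT1. CXCL8, the neutrophil chemokine interleukin-8, lay at 12.11, 12.37 and 12.32 in HCC1954 and 7.65, 7.62 and 7.83 in JIMT1 (23.7-fold). CX3CL1 and the death ligand TNFSF10 were detected only in HCC1954 (at least 26.7-fold and at least 35.9-fold higher). The JIMT1 side held IL6, at 6.11, 6.03 and 5.53 in HCC1954 and 7.69, 7.66 and 7.94 in JIMT1 (3.66-fold), and TNFAIP3, an inhibitor of NF-kB signaling (4.76-fold).

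Luminal genes were higher in HCC1954 with exceptions among the defining ones. Of 29 measured, 14 (48.3%) were at least 2-fold higher in HCC1954 and 2 (6.9%) in JIMT1. AGR2, a protein-folding enzyme of secretory epithelia, and SPDEF, an ETS factor, were detected only in HCC1954 (at least 101-fold and at least 47.4-fold higher). MUC1, a membrane mucin, lay at 12.94, 12.75 and 12.93 in HCC1954 and 7.63, 7.72 and 8.06 in JIMT1 (33.6-fold). KRT19 went the other way, at 9.70, 9.48 and 9.29 in HCC1954 and 13.18, 13.27 and 13.14 in JIMT1 (13.1-fold higher in JIMT1). ESR1, the estrogen receptor, was 3.07-fold higher in JIMT1, at 6.19, 6.10 and 5.83 in HCC1954 and 7.78, 7.43 and 7.75 in JIMT1.

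Junction genes stood almost wholly on the HCC1954 side. Of 39 measured, 21 (53.9%) were at least 2-fold higher in HCC1954 and 1 (2.56%) in JIMT1, the last being the desmosomal PKP2 (-2.45 ± 0.13). CDH1, or E-cadherin, which holds epithelial cells together, lay at 12.86, 12.82 and 12.75 in HCC1954 and at a mean of 10.98 ± 0.07 (SD, n = 3) in JIMT1 (3.56-fold). CLDN1, a tight junction strand protein, lay at 12.72, 12.84 and 12.76 in HCC1954 and 8.54, 8.76 and 8.70 in JIMT1 (17.2-fold). CLDN8 was at least 50.4-fold higher and the gap junction gene GJB2 at least 20.9-fold. The median of the list was 1.12, or 1.01 with undetected members at their bound.

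Basal genes split between the lines. Of 25 measured, 11 (44%) were at least 2-fold higher in HCC1954 and 5 (20%) in JIMT1, with a median of 0.13 (0.24 with the mean of all probes). Beside KRT15, HCC1954 had more KRT16 (at 10.95, 10.90 and 10.79, and detected on 1 of 3 JIMT1 arrays), SOX9, a factor of progenitor cells (at least 30.4-fold), and ACTA2, the smooth muscle actin of myoepithelium (at least 49.8-fold). KRT5, a defining basal keratin, lay at 8.57, 8.70 and 8.50 in HCC1954 and 10.04, 10.10 and 10.15 in JIMT1 (2.85-fold higher in JIMT1). TRIM29 was 5.22-fold higher in JIMT1 and MYL9, a myosin light chain, at least 14.6-fold.

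Other keratins and epidermal genes lay mainly in HCC1954, with 12 of 27 (44.4%) 2-fold higher there and 4 (14.8%) in JIMT1. KRT23 and KRT13 were at least 16.5-fold and at least 6.63-fold higher in HCC1954, and LYPD3 and the protease KLK7 were 3.6-fold and 3.67-fold higher in JIMT1. S100 and annexin genes gave 6 of 25 calls in each direction, with S100A7 at least 8.86-fold higher in HCC1954 and ANXA8 6.33-fold higher in JIMT1.

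Mesenchymal genes were the list furthest to the JIMT1 side. Of 23 measured, 5 (21.7%) were at least 2-fold higher in HCC1954 and 11 (47.8%) in JIMT1, with a median of -0.95 (-1.53 where detection had to be under 0.01). CDH2, or N-cadherin, lay at 5.83, 4.50 and 4.49 in HCC1954 and 10.53, 10.40 and 10.49 in JIMT1, and 1 of 3 HCC1954 arrays detected it, so no fold is given. SPARC, a matrix glycoprotein, and WNT5B were detected only in JIMT1 (at least 59.5-fold and at least 31.1-fold). VIM, the filament protein vimentin, went the other way, at 11.80, 11.88 and 11.64 in HCC1954 and 8.11, 8.31 and 8.41 in JIMT1 (11.3-fold higher in HCC1954), as did TNC and TPM1 (3.63-fold and 3.39-fold). The defining genes of the list therefore did not share a direction.

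Matrix genes were called more often in JIMT1. Of 36 integrin, laminin and collagen genes, 7 (19.4%) were at least 2-fold higher in HCC1954 and 14 (38.9%) in JIMT1. With a background offset of 50, the count toward HCC1954 was 2. COL6A1, a chain of collagen VI, was at least 38.7-fold higher in JIMT1 and its partner COL6A2 at least 20.7-fold. COL4A1, of basement membrane collagen, lay at 5.92, 5.91 and 6.20 in HCC1954 and 8.84, 8.78 and 8.88 in JIMT1 (7.08-fold). COL5A1 and ITGB2, an integrin chain of leukocytes, were higher in HCC1954 (12.5-fold and 6.82-fold). Among 44 proteases and inhibitors, 14 (31.8%) were at least 2-fold higher in HCC1954 and 11 (25%) in JIMT1, with TIMP3, a protease inhibitor, at least 31.6-fold higher in JIMT1 and MMP7, a protease of glandular epithelium, at 9.54, 9.54 and 9.42 in HCC1954 and 4.63, 5.29 and 4.57 in JIMT1, where 1 of 3 arrays detected it.

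ERBB2, the receptor kinase whose gain both lines carry, was higher in HCC1954. ERBB2 lay at 14.91, 14.96 and 14.79 in HCC1954 and 12.08, 12.10 and 11.98 in JIMT1, a difference of 2.83 ± 0.07, or 7.13-fold. The measured genes around it, in their order along chromosome 17, fell into runs. MED1 and CDK12, which come before PPP1R1B in that order, were higher in JIMT1, with CDK12, a kinase of RNA polymerase II, at 8.01, 8.19 and 7.98 in HCC1954 and 10.95, 11.01 and 10.87 in JIMT1 (7.38-fold). From PPP1R1B to ORMDL3, 9 of 11 genes were at least 2-fold higher in HCC1954. GRB7, an adaptor of receptor kinases, lay at 14.14, 13.56 and 13.66 in HCC1954 and 10.30, 10.35 and 10.29 in JIMT1 (11.1-fold), PGAP3 was 13.3-fold higher and GSDMB, a gasdermin, 10.4-fold. The exceptions were PNMT, detected only in JIMT1, and IKZF3 (0.07 ± 0.31, detected on 2 of 3 arrays of each line).

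The genes beyond that run turned again. PSMD3, a proteasome subunit, lay at 8.53, 8.36 and 8.69 in HCC1954 and 11.51, 11.42 and 11.33 in JIMT1 (7.44-fold higher in JIMT1), and MED24 and the thyroid hormone receptor THRA differed by -2.28 ± 0.10 and -1.51 ± 0.24. MSL1 and CASC3 came next, higher in HCC1954 (1.15 ± 0.18 and 1.01 ± 0.12), and the last genes of the stretch, RARA and TOP2A among them, differed by less than 2-fold (0.01 ± 0.09 and 0.56 ± 0.10). Gene copies were not analysed here.

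**Figure D3:**
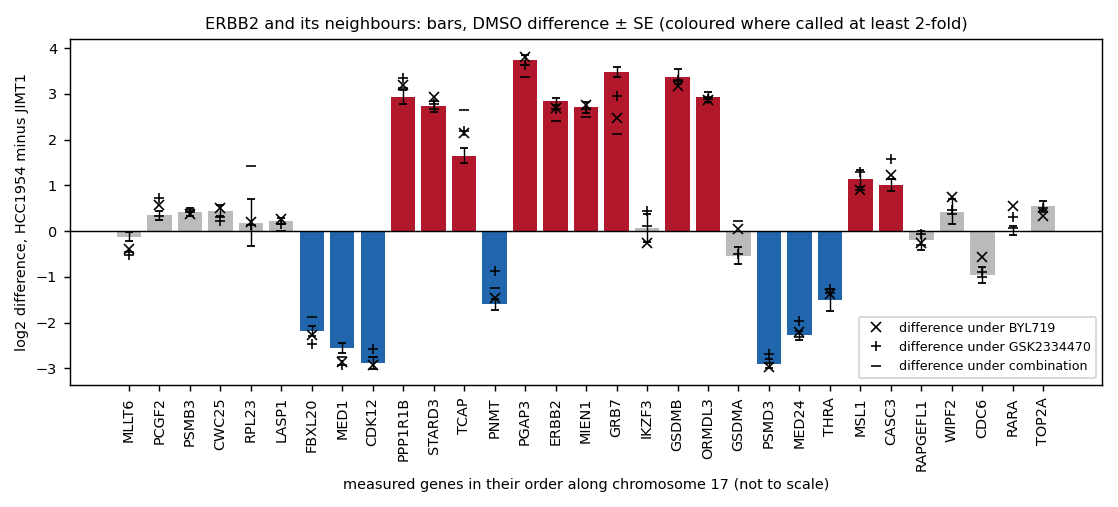
Log2 difference, HCC1954 minus JIMT1, of 31 measured genes around ERBB2 in chromosome order, as bars with SE for DMSO and as signs for the treated arrays. A run above 0 from PPP1R1B to ORMDL3, broken by PNMT and IKZF3, lies between runs below 0, and the treated arrays show the same runs.

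Of 63 measured genes of the PI3K, PDK1, SGK and AKT pathway, 13 (20.6%) were at least 2-fold higher in HCC1954 and 4 (6.35%) in JIMT1. SGK1, a kinase that PDK1 activates, lay at 9.45, 9.24 and 9.12 in HCC1954 and 12.28, 12.44 and 12.54 in JIMT1, 8.89-fold higher in JIMT1 with no overlap. SGK3 did not pass the limma test (0.12 ± 0.16, adjusted p = 0.5), and neither did PDPK1, which encodes PDK1, at 9.77, 9.70 and 9.51 in HCC1954 and 9.94, 9.65 and 9.77 in JIMT1 (-0.13 ± 0.10, limma adjusted p = 0.25). AKT1 was 2.07-fold higher in HCC1954. NDRG1, whose product SGK1 phosphorylates, lay at 10.05, 9.82 and 10.30 in HCC1954 and 8.55, 8.81 and 8.35 in JIMT1. Its transcript was thus 2.8-fold higher in HCC1954, opposite in direction to that of SGK1. Phosphorylation of the NDRG1 protein is not measured by these arrays.

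Other members of the pathway differed in both directions. GAB2 and IRS1, docking proteins of receptor kinases, were detected only in HCC1954 (at least 12.4-fold and at least 3.33-fold higher), and INPP4B, a lipid phosphatase, was 4.4-fold higher. PIK3CD, a catalytic subunit best known from leukocytes, differed by -1.78 ± 0.19, with detection on 1 of 3 HCC1954 arrays, and EIF4EBP1, a repressor of translation, by -1.45 ± 0.12. Differences under 2-fold were those of IRS2 (-0.46 ± 0.14, not past the threshold with median scaling), TSC2 (-0.59 ± 0.15), FOXO3 (0.55 ± 0.13), BCL6 (0.86 ± 0.08) and CCND1 (0.74 ± 0.09). FOXO1 (-0.09 ± 0.11) and ERBB3 (-0.32 ± 0.14) did not pass the test. CCNG2, a FOXO target, lay at 8.68, 9.01 and 8.43 in HCC1954 and 5.72, 5.10 and 5.19 in JIMT1, where 1 of 3 arrays detected it.

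Receptor kinases as a list were near the shares of all genes, with 4 of 26 (15.4%) 2-fold higher in HCC1954 and 5 (19.2%) in JIMT1. FGFR3 lay at 6.34, 6.15 and 6.44 in HCC1954 and 9.70, 9.85 and 9.59 in JIMT1 (10.6-fold higher in JIMT1), and MET was 2.09-fold higher in HCC1954. Ligands differed more. Of 38 growth factors and ligands, 19 (50%) were at least 2-fold higher in HCC1954 and 12 (31.6%) in JIMT1. GDF15, a stress-induced member of the TGF-beta family, was at least 95.7-fold higher in HCC1954, and IGFBP3, which binds insulin-like growth factors, lay at 12.84, 13.23 and 12.94 in HCC1954 and 7.37, 7.55 and 8.04 in JIMT1 (40.7-fold). NRG1, the ligand of ERBB3, lay at 9.27, 9.12 and 9.32 in JIMT1, and its brightest probe was not well above background in HCC1954 (at least 14.7-fold higher in JIMT1). Another NRG1 probe was detected on an HCC1954 DMSO array, so this bound is that of the brightest probe and not of the gene.

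Among Wnt, Notch, TGF-beta and Hippo genes, 16 of 54 (29.6%) were 2-fold higher in HCC1954 and 8 (14.8%) in JIMT1. NOTCH3, a Notch receptor, was 9.55-fold higher in HCC1954, while the Notch target HEY1 was at least 9.64-fold higher in JIMT1 and the ligand DLL3 4.62-fold. CCN1, a YAP target, lay at 11.81, 11.51 and 12.08 in HCC1954 and 8.85, 8.96 and 9.07 in JIMT1 (7.16-fold higher in HCC1954). Among ERK outputs, SPRY2, a feedback inhibitor, was 3.89-fold higher in HCC1954 and FOSL1, an AP-1 subunit, 5.89-fold higher in JIMT1.

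Enzymes of steroid, retinoid and xenobiotic metabolism differed more often toward HCC1954. Of 50 measured, 24 (48%) were at least 2-fold higher in HCC1954 and 9 (18%) in JIMT1. AKR1C3, which reduces steroids and prostaglandins, lay at 12.53, 12.57 and 12.38 in HCC1954 and at a mean of 7.68 ± 0.09 (SD, n = 3) in JIMT1 (28.3-fold), and AKR1B10, which reduces retinal, was 34.8-fold higher in HCC1954. CRABP2, which carries retinoic acid, was 25.1-fold higher and CYP26A1, which degrades it, 15.5-fold. HSD3B1, a steroid dehydrogenase, and ALDH2 were detected only in JIMT1 (at least 29.5-fold and at least 11.9-fold).

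Of 47 glutathione and NRF2 genes, 16 (34%) were at least 2-fold higher in HCC1954 and 8 (17%) in JIMT1. Among the transferases, GSTP1 lay at 7.80, 7.58 and 7.83 in HCC1954 and 13.01, 13.21 and 13.11 in JIMT1 (41.5-fold higher in JIMT1), whereas GSTA1 was at least 25.7-fold higher in HCC1954. The neighbours GSTM1, GSTM2, GSTM3 and GSTM4, near copies of each other, were also called 2-fold higher in HCC1954 by their fitted differences. All were detected only in HCC1954, and their bounds were at least 10.8-fold, 2.31-fold, 1.92-fold and 1.7-fold, in that order. The bounds of GSTM3 and GSTM4 thus lay under 2-fold. GPX3, a secreted peroxidase, was at least 18.1-fold higher in JIMT1. Of 34 sterol and fatty acid synthesis genes, 14 (41.2%) were at least 2-fold higher in HCC1954 and 4 (11.8%) in JIMT1. HMGCS1, an early enzyme of the sterol pathway, lay at 12.34, 12.17 and 12.39 in HCC1954 and 10.29, 10.22 and 10.19 in JIMT1 (4.2-fold), and FDPS and IDI1 further along it were 3.38-fold and 2.8-fold higher. Glycolysis and hypoxia genes were near the shares of all genes (16.3% and 11.6%), although the glucose transporter SLC2A3 was at least 15.3-fold higher in JIMT1.

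Mucin and glycan genes were called higher in HCC1954 in 15 of 35 and in JIMT1 in 6, led by ST6GAL1, a sialyltransferase (22.8-fold higher in HCC1954). Of 23 metal genes, 6 were called in each direction, with the metalloreductase STEAP4 at least 36.8-fold higher in HCC1954 and the zinc importer SLC39A14 5.38-fold higher in JIMT1. HOX genes of 1 cluster went both ways. HOXB2 lay at 11.25, 11.02 and 11.17 in HCC1954 and 7.58, 7.66 and 7.57 in JIMT1 (11.7-fold), and HOXB5 differed by -3.67 ± 0.15 with detection on 1 of 3 HCC1954 arrays. Among germline antigens, CT83 was at least 14-fold higher in HCC1954 and MAGEC2 12.2-fold higher in JIMT1.

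Of cell cycle genes, 71.2% of the G1/S list and 78.2% of the G2/M list passed the threshold, against 69.7% of all genes. Of 52 genes of G1/S and DNA replication, 30 passed the threshold toward JIMT1 and 7 toward HCC1954, and 9 (17.3%) and 2 (3.85%) were 2-fold. CDK4, which drives the cycle with cyclin D, lay at 12.60, 12.75 and 12.45 in HCC1954 and 14.29, 14.36 and 14.46 in JIMT1 (3.42-fold higher in JIMT1). Of 55 G2/M genes, 31 passed toward HCC1954 and 12 toward JIMT1, with 4 and 0 at 2-fold, among them KIF20A, a motor of cytokinesis (4.42-fold). CDKN1A, the inhibitor p21, was 3.08-fold higher in HCC1954. Of cell death genes, CASP1 was at least 8.74-fold higher in HCC1954 and MLKL, which executes necroptosis, 6.72-fold higher in JIMT1.

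Oxidative phosphorylation had 2 of 70 genes 2-fold in each direction, and ribosomal proteins had 0 of 68 toward HCC1954 and 6 toward JIMT1, with RPL14 the furthest (-1.71 ± 0.18). In the heat shock and unfolded protein list 21 of 41 genes passed toward JIMT1 and 11 toward HCC1954, with 3 at 2-fold in each direction, HSPB8, a small heat shock protein, among them (9.23-fold higher in JIMT1).

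The differences were also ordered along the chromosomes. Measured genes were taken in RefSeq order in 593 blocks of 20 neighbours, and 18 blocks had a median of at least 1 toward HCC1954 and 8 toward JIMT1. The first 2 blocks of chromosome 9 had medians of 1.69 and 1.88, with 15 of 20 genes in each at least 2-fold higher in HCC1954 and 0 in JIMT1. They hold VLDLR, a lipoprotein receptor (3.89 ± 0.11), JAK2, a kinase of cytokine receptors (2.68 ± 0.20, detected on 2 of 3 JIMT1 arrays), and NFIB, a transcription factor (3.33 ± 0.11), while CD274, which encodes PD-L1, did not pass the test (0.01 ± 0.23). On chromosome 12 the block that holds CDK4 had a median of -1.53 with 14 of 20 genes higher in JIMT1. Neighbouring blocks of chromosome 8 had medians of -1.39 and -1.52 and include NRG1, EIF4EBP1, SFRP1 and NSD3, a histone methyltransferase (-3.10 ± 0.13, detected on 1 of 3 HCC1954 arrays).

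Chromosome 20 had 4 blocks in a row toward JIMT1, with medians from -1.08 to -1.27, and 1 block of chromosome 11, from ADM to C11orf58, had a median of -1.01. Over all of chromosome 20, 31.8% of genes were 2-fold higher in JIMT1 and 8.24% in HCC1954. Chromosome 14 was the reverse, with 26.9% higher in HCC1954 and 3.66% in JIMT1. One of its blocks holds IFI27 and SERPINA3 beside genes with smaller differences such as MOAP1 (1.83 ± 0.10) and GOLGA5 (1.51). Blocks were described without a test, and neighbours of a gene family share a block, as the keratins of chromosome 17 do.

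**Figure D4:**
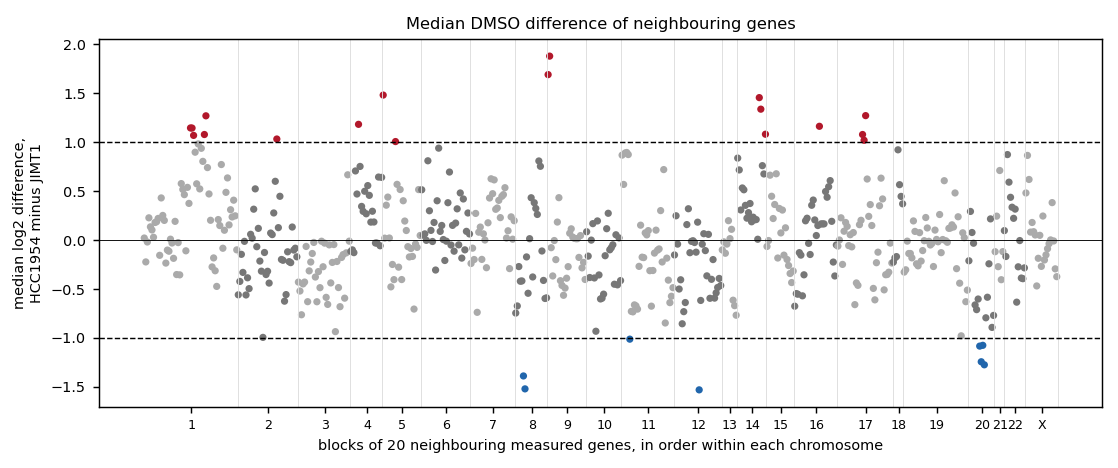
Median log2 difference, HCC1954 minus JIMT1, of 593 blocks of 20 neighbouring measured genes in order within each chromosome, with dashed lines at 1 and -1. The first 2 blocks of chromosome 9 are the furthest above 0 (1.69 and 1.88), and blocks of chromosomes 8, 11, 12 and 20 lie below -1.

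The line differences were then read within each treatment. The 18 treated arrays do not enter the DMSO group means, but they share the normalization, the filter on probes and the estimate of the spread with them. A 2-fold difference between the lines was called for 28% of all genes under BYL719, 28.4% under GSK2334470 and 28.8% under both agents. Of the 3440 genes called 2-fold under DMSO, 3437, 3439 and 3432 kept their direction, and 85.7%, 87.8% and 85.1% were called 2-fold again in it. The difference itself changed (interaction, limma adjusted p under 0.05) for 159 genes with BYL719, 22 with GSK2334470 and 543 with both, 90, 10 and 262 of them among the 3440. For SGK1 the difference was -3.15 under DMSO and -3.30, -3.74 and -3.54 under BYL719, GSK2334470 and both, and for NDRG1 it was 1.48 and 0.59, 0.99 and 0.02.

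**Figure D5:**
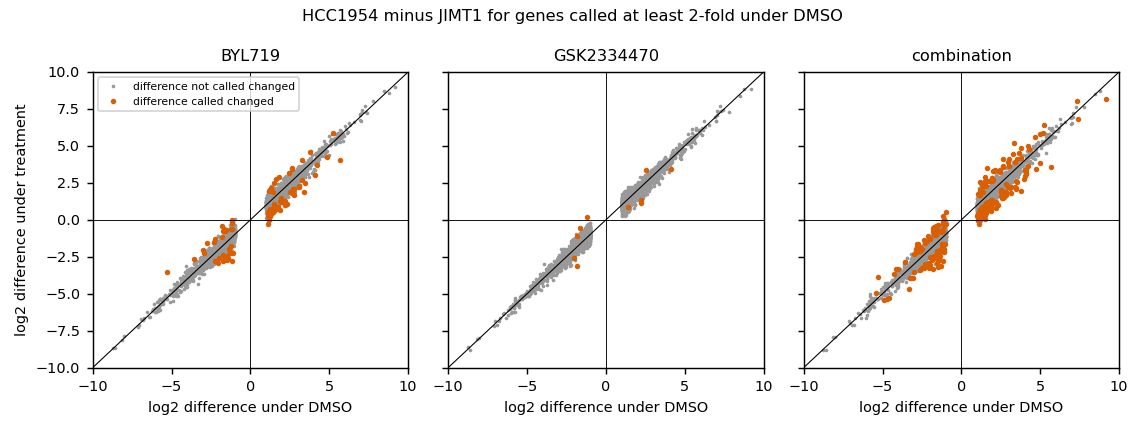
Log2 difference between the lines under each treatment against that under DMSO, with the line of equality. Points are the genes called at least 2-fold under DMSO, less any linked to sex, which were left out. Genes whose difference was called changed (90, 10 and 262) are set apart by color, and all but 3, 1 and 8 genes keep their direction.

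Different probes of a gene could disagree. A second probe was called in the opposite direction for 106 genes, and at least 2-fold both ways for 3, CPM, KLC2 and SENP5. Markers of other cell types were measured for 14 of 41, with 5 called 2-fold higher in HCC1954 and 4 in JIMT1. The median level over the measured markers was 6.38, 6.24 and 6.03 in HCC1954 and 6.88, 6.79 and 6.58 in JIMT1. PECAM1, of endothelium, lay at 9.30, 9.50 and 9.17 in HCC1954 and 6.86, 6.85 and 6.58 in JIMT1 (5.9-fold), and CSF1R, of macrophages, at 6.11, 6.07 and 6.10 in HCC1954 and 8.15, 8.22 and 8.31 in JIMT1 (4.39-fold higher in JIMT1). COL1A1, of fibroblasts, did not pass the test (-0.21 ± 0.18), and PTPRC, the common leukocyte marker, had no named probe past the filter. The part of such cells in the differences was not tested.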

How the data were processed

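RNA of 24 cultures was hybridised to Illumina bead arrays. The deposited table gives, per the file headers, a mean intensity per probe made by the authors with GenomeStudio, without normalization, a detection p-value, the count of beads and a bead standard error, a measure of signal spread that was not used. A second deposited table of processed intensities, with scale unstated, served as an alternative. The authors' columns all belong to the 24 samples.

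Background was corrected with the detection p-values (normexp, offset 16), and values were taken to log2 and quantile normalized over 24 arrays with limma 3.58.1 in R 4.3.3. Probes with a detection p-value under 0.05 on all 3 arrays of a group were kept, and a gene is its brightest probe. 1 model of 8 group means was fitted with empirical Bayes, with Benjamini-Hochberg adjustment over 12109 genes, and was tested on simulated data. The labels call the 3 cultures of each group biological replicates.

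The members and gene lists were chosen with earlier results of these data known. Genes were named by rule. The first rule took the 15 largest differences in each direction among genes detected in both lines whose arrays did not overlap. Further rules took the 12 highest bounds in each line and up to 4 members of each list in each direction. The study's own genes, members of blocks with an absolute median of at least 1, and cell type markers were named as well. Genes linked to sex were left out.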

Additional observations from a re-analysis of the deposited data

Results flagged for a closer look

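The difference between the lines changed under at least 1 treatment for 17 of the 160 genes given values above (10.6%), by the interaction of line and treatment in limma, adjusted over all genes, and for 583 of 12109 genes in all (4.81%). The 160 genes were not chosen evenly from all genes, so nothing is read from these shares. Each value is the line difference under the treatment minus that under DMSO, on the log2 scale. A gene is listed here only under the treatment with its lowest adjusted p-value, and it may have changed under another too. Under both agents the difference was smaller for NDRG1 (-1.46, from 1.48 to 0.02, adjusted p = 0.000299), GRB7 (-1.35, from 3.47 to 2.12, adjusted p = 2.15e-05) and CYP26A1 (-1.21, from 3.95 to 2.74, adjusted p = 0.000763). The same held under both agents for CCN1 (-0.96, from 2.84 to 1.88, adjusted p = 0.00668), CLDN1 (-0.75, from 4.11 to 3.36, adjusted p = 0.00454) and ERBB2 (-0.43, from 2.83 to 2.40, adjusted p = 0.0202). The difference was larger under both agents for MMP7 (0.92, from 4.67 to 5.59, adjusted p = 0.0301). Under BYL719 the difference changed for AKR1C3 (-0.56, from 4.82 to 4.26, adjusted p = 0.0455), CCNG2 (-1.52, from 3.37 to 1.86, adjusted p = 0.000857) and RARA (0.55, from 0.01 to 0.56, adjusted p = 0.0483). CCNG2 and MMP7 were detected on 1 of 3 JIMT1 arrays under DMSO, so their fitted differences also rest on a line near background. Under GSK2334470 the difference changed for PECAM1 (0.77, from 2.56 to 3.33, adjusted p = 0.0399). 

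The 6 others were detected in 1 line only under DMSO, and their fitted differences rest on a line near background and are no bounds. Under both agents the value changed for CCL2 (-0.58, from 7.41 to 6.82, adjusted p = 0.0153), CEACAM6 (-1.01, from 9.19 to 8.18, adjusted p = 0.0289), GDF15 (0.75, from 7.31 to 8.06, adjusted p = 0.000746), SLC2A3 (-0.62, from -4.74 to -5.35, adjusted p = 0.0052) and TNFSF10 (-2.12, from 5.65 to 3.53, adjusted p = 7.94e-05). Under BYL719 it changed for HSD3B1 (1.76, from -5.29 to -3.53, adjusted p = 1.98e-05).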

How the results depend on the processing

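The counts were recomputed under 17 alternatives. With median scaling 3686 genes were called higher in HCC1954 and 3617 in JIMT1, and with the authors' processed values 4099 and 4241. Leaving out 1 DMSO array gave 3983 to 4077 and 4060 to 4132 genes, and 1771 to 1803 and 1663 to 1708 at 2-fold. The 2-fold counts, 1776 and 1664 in the main setting, moved more with the processing. They were 1386 and 1300 with an offset of 50 and 1539 and 1428 without background correction. With the authors' processed values they were 2035 and 1927. With 4-fold in place of 2-fold the calls were 556 and 553. With blocks of 10 genes, 4.17% had a median of at least 1 toward HCC1954 and 2.25% toward JIMT1, and with blocks of 40 genes 1.72% and 0.69%, where fewer blocks follow from the block size. Of the 160 genes with values, 2 lost their call in 1 setting each, IRS2 with median scaling (-0.43, adjusted p = 0.0828) and KRT18 with the mean of all probes (-0.05), and ERBB3 and IFI6 gained one in 6 settings each. No named gene reversed. Of 578 list medians, 79 over 30 of the 34 lists moved by at least the spread between arrays. A further 4 moved that far and changed sign from a main median larger than the spread. The spread is the SD of the list median over pairs of an HCC1954 and a JIMT1 array, and pairs share arrays. The interferon median ran from 1.27 (offset of 50) to 1.78 (the authors' processed values), that of junctions from 0.83 (offset of 50) to 1.21, of luminal genes from 0.70 to 1.03, of mesenchymal genes from -1.53 (detection under 0.01) to -0.90, and of basal genes from 0.07 to 0.24 (mean of all probes). The median of the cell death list turned from 0.08 to -0.066 with the mean of all probes, ran from -0.0316 (without JIMT1 replicate 1) to 0.274 (without HCC1954 replicate 3) when 1 array was left out, with -0.0039 without HCC1954 replicate 1, and that of housekeeping genes from 0.08 to -0.0039 with median scaling. With an offset of 50, 2 matrix genes were 2-fold higher in HCC1954 in place of 7. Without HCC1954 replicate 3, 4 oxidative phosphorylation genes were so called in place of 2, and without HCC1954 replicate 1, with the authors' processed values or with the mean of all probes the calls of antigen presentation genes in JIMT1 were 2 in place of 1. With the authors' processed values 5 HOX genes were 2-fold higher in JIMT1 in place of 3. The cause of these changes was not tested.

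Same-numbered DMSO arrays of the lines did not deviate together (r = -0.000631, 0.0288 and -0.0471), and the DMSO comparison was not paired by number. Whether same-numbered arrays within a line belong together was not examined. With the number as a replicate block 4155 and 4267 genes were called, 1776 and 1664 at 2-fold. With 3 arrays a group, the number of arrays limits the precision, and genes near background have only a bound.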
